A study of Homo sapiens with 6 samples.

Results

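The mitochondrial ribosomal protein genes are the protein-coding genes whose symbols start with MRPL or MRPS followed by a number. They were found by joining the counted Ensembl transcripts to GENCODE gene symbols. Of 37339 transcription units (TUs) matched in this way, 76 belonged to these genes, 1 per gene. The annotation names 78 such genes, and MRPL41 and MRPL53 were not analysed here. The libraries were made from untreated K562 cells, a human chronic myelogenous leukemia cell line, with 2 PRO-seq libraries and 4 RNA-seq libraries. PRO-seq sequences nascent RNA from engaged polymerases, whereas the RNA-seq measured steady-state total RNA after rRNA depletion. According to the study's methods all cells came from the same flask, so the spread between libraries and every p-value given here leave out differences between cultures.

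Mitochondria carry their own ribosome, which translates the few proteins encoded in mitochondrial DNA, all of them subunits of the respiratory chain and ATP synthase. Its rRNAs come from the mitochondrial genome, but its proteins are encoded in the nucleus, made in the cytosol and imported. The MRPL proteins build the large subunit, which holds the peptidyl transferase center, and most MRPS proteins build the small subunit, which binds the mRNA and decodes it. Many of them descend from proteins of the bacterial ribosome, whereas others are found only in mitochondria.

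The ratio of RNA-seq to PRO-seq level was used as a relative RNA half-life, since at steady state the amount of an RNA is its production rate times its lifetime. Levels are in TPM, the usual unit of transcript abundance scaled to the library total, which divide counts by TU length, so that genes within an assay can be compared. Log2 relative half-life is given relative to the median mRNA, which is 0 on this scale. A gene was tested where its summed PRO-seq level was over 10 TPM and its summed RNA-seq level over 1 TPM. It was called above or below the median mRNA at a Benjamini-Hochberg adjusted p under 0.05 in edgeR's quasi-likelihood test over all TUs.

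Counts on TUs were between 5732780 and 9002746 in the RNA-seq libraries, and 6993816 and 7245632 in the PRO-seq libraries. All 10 markers of K562 cells that were looked up passed 1 TPM in RNA-seq, and their summed level was between 11571 and 12400 TPM. Of 6 markers of other cell types with a count, EPCAM passed 1 TPM, at 117 to 123 TPM, and the other 5 (CD3E, MS4A1, CD79A, ALB and COL1A1) stayed under it. The mitochondrial ribosomal protein genes held 0.808%, 0.811%, 0.809% and 0.802% of the matched counts in RNA-seq replicates 1 to 4, and 0.263% and 0.264% in PRO-seq replicates 1 and 2.

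Most mitochondrial ribosomal protein mRNAs had a longer relative half-life than the median mRNA. Of 76 genes, 66 passed the thresholds, and edgeR placed 54 of these above the median mRNA, 7 below it and 5 on neither side. The background was large, since 45.3% of the 8733 mRNAs tested were called above and 45.0% below, and of all 10052 TUs tested 39.9% were called above and 50.5% below. Read against these shares, 81.8% of the mitochondrial ribosomal protein genes tested lay above and 10.6% below. Their median log2 relative half-life was 1.58, and it ranged from 1.52 to 1.62 over the 8 pairs of an RNA-seq and a PRO-seq library. In all 8 pairs 55 of the genes lay above the median mRNA and 7 below it, and 4 fell on both sides. Without PRO-seq replicate 2, 4 genes were called below instead of 7, and 53 above, against 43.4% and 43.9% of mRNAs. With RNA-seq and PRO-seq replicates of the same number fitted as a block, 54 were called above and 5 below. Of mRNAs, 44.3% were then above and 44.0% below.

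The median levels were above those of all mRNAs tested in both assays, without matching for span. The median RNA-seq level of the 66 genes was 147 TPM, against 31.2 TPM for all mRNAs tested, and their median PRO-seq level was 77.9 TPM, against 47.5 TPM. On the log2 scale the median exceeded that of all mRNAs by 2.23 in RNA-seq (2.18 to 2.26 over the library pairs) and by 0.71 in PRO-seq (0.69 to 0.75). Of all 76 genes, 71 exceeded the mRNAs' median RNA-seq level and 50 their median PRO-seq level. The genes also varied less among themselves than mRNAs in general. The SD of log2 level was 1.15 in RNA-seq and 1.04 in PRO-seq, against 2.05 and 1.24 for all mRNAs tested, and the SD of log2 relative half-life was 1.12 against 1.68. In RNA-seq the upper and lower quartiles of the 66 genes differed 2.87-fold, and those of all mRNAs 6.23-fold. Across the 66 genes Spearman's rho between the PRO-seq and the RNA-seq level was 0.39, against 0.55 across all mRNAs tested. These are correlations across genes of the same libraries, and genes are not independent replicates.

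**Figure D1:**
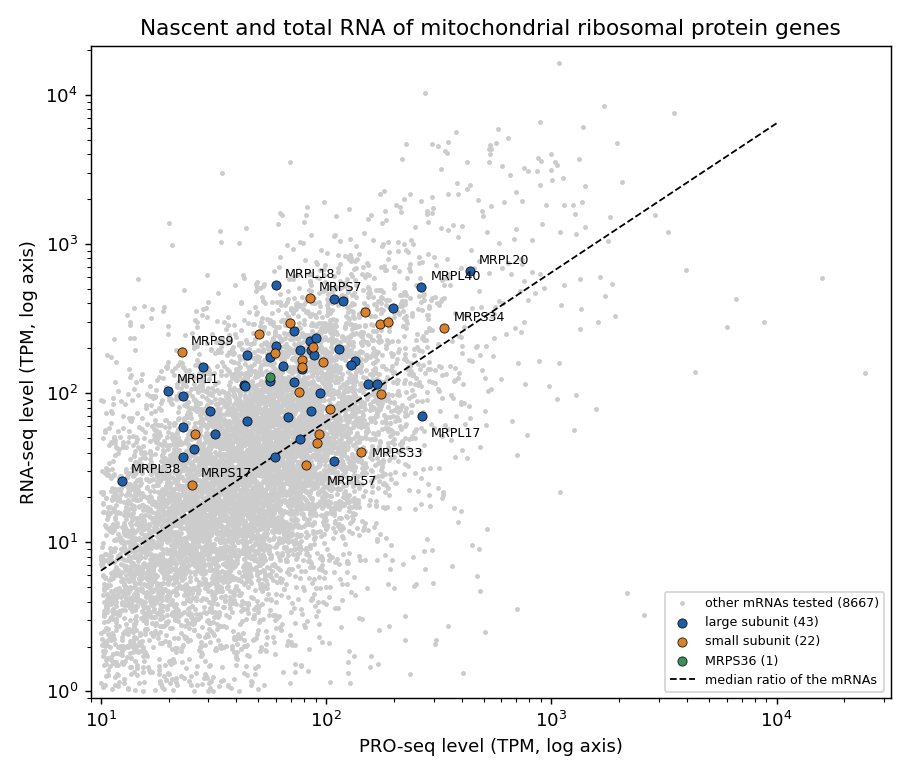
Summed PRO-seq level (x axis, TPM, log scale) and RNA-seq level (y axis, TPM, log scale) of the 66 mitochondrial ribosomal protein genes tested, colored by subunit, over the other mRNAs tested in grey; the dashed line is the median ratio of the mRNAs. Most colored points lie above the line, with MRPL20 highest in both assays and MRPL17 far below the line.

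The spread between libraries was small beside these differences. Over the 66 genes the median coefficient of variation was 4.13% in the 4 RNA-seq libraries and 7.30% in the 2 PRO-seq libraries. Among the 66 genes the coefficient reached 16.6% for MRPL54 in RNA-seq and 30.8% for MRPS17 in PRO-seq, where MRPS17 had 48 counts in all.

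The longest relative half-lives belonged to MRPL18, MRPS9, MRPL37, MRPL1 and MRPS7, the 5 highest among genes that were called and lay on the same side in replicates 1 and in replicates 2. The place of MRPL37 among them depends on the lengths used. With lengths cut to its bases inside the canonical transcript, and counts unchanged, it lay at 2.22. As counted, the genes ranked 6 (MRPS35, 2.94) to 15 (MRPL39, 2.26) all lay above that value, although these values come from another fit. MRPL18 (ENSG00000112110, GRCh38 chr6:159789812-159798313, plus strand), a large subunit protein of the bacterial L18 family, had RNA-seq levels of 526, 549, 516 and 525 TPM and PRO-seq levels of 61.3 and 58.1 TPM. Its RNA-seq level was the second highest of the 76 genes, whereas its PRO-seq level was below the median of the 66 tested. The log2 relative half-life was 3.78 ± 0.08 (SE), 13.8-fold the median mRNA (edgeR adjusted p = 6.1e-28). The counted transcript of MRPL18 has no defined coding sequence, with 758 bases of exons in 8502 bases.

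MRPS9 (ENSG00000135972, chr2:105038069-105099960, plus strand), a small subunit protein with a bacterial counterpart, reached a similar ratio at lower levels. It had 185, 195, 178 and 197 TPM in RNA-seq and 23.3 and 22.4 TPM in PRO-seq. All 4 RNA-seq values exceeded the members' median and both PRO-seq values were among the lowest of the genes tested. The log2 relative half-life of MRPS9 was 3.68 ± 0.06 (edgeR adjusted p = 2.2e-29), closer to that of MRPL18 than the sum of their SEs.

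MRPL37, a large subunit protein found only in mitochondria (chr1:54184041-54210132, plus strand), had 154, 143, 153 and 151 TPM in RNA-seq and 28.7 and 28.4 TPM in PRO-seq. MRPL1 (chr4:77862830-77952785, plus strand), the counterpart of bacterial L1 at the exit site for tRNA, had 109, 99.8, 96.7 and 111 TPM and 20.4 and 19.2 TPM. MRPS7 (chr17:75261879-75266376, plus strand), a small subunit protein of the head domain, was transcribed at a higher level, with 440, 445, 420 and 430 TPM in RNA-seq and 75.2 and 94.3 TPM in PRO-seq. In these 3 genes the PRO-seq levels ranged from 19.2 to 94.3 TPM, while the log2 relative half-lives were 3.03 ± 0.08, 3.03 ± 0.07 and 2.99 ± 0.09 (edgeR adjusted p of 1.3e-24, 5.3e-26 and 2.1e-23). The counted transcript of MRPL37 has no defined coding sequence, with 747 bases of exons in 26092 bases, against 1483 and 18217 in its canonical transcript. With lengths cut to the bases inside the canonical transcript, and counts unchanged, MRPL37 lay at 2.22, below MRPL1 at 3.01 and MRPS7 at 2.97.

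The shortest relative half-lives belonged to MRPL17, MRPS33, MRPL57, MRPS11 and MRPS2. MRPL17 (ENSG00000158042, chr11:6680385-6683340, minus strand), the counterpart of bacterial L17 near the exit of the peptide tunnel, had the third highest PRO-seq level of all 76 genes, with 251 and 281 TPM. Its RNA-seq levels were 73.0, 69.5, 71.7 and 69.1 TPM, about the lower quartile of the genes tested (72.0 TPM). The log2 relative half-life of MRPL17 was -1.28 ± 0.10, 2.42-fold below the median mRNA (edgeR adjusted p = 1.3e-12).

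MRPS33 (chr7:141002610-141014952, minus strand), a small subunit protein found only in mitochondria, had 40.7, 40.7, 39.6 and 41.3 TPM in RNA-seq and 142 and 143 TPM in PRO-seq. MRPL57 (chr13:21176658-21179084, plus strand), a short large subunit protein, had 34.6, 34.4, 36.3 and 34.3 TPM and 117 and 101 TPM. In both genes the PRO-seq level was above the median of the genes tested and the RNA-seq level was close to that of the median mRNA. Their log2 relative half-lives were -1.18 ± 0.07 and -1.01 ± 0.18 (edgeR adjusted p of 1.9e-16 and 5.0e-06).

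MRPS11 (chr15:88467708-88480776, plus strand), a small subunit protein of the platform, had 30.0, 34.5, 34.1 and 33.1 TPM in RNA-seq and 81.1 and 82.3 TPM in PRO-seq, and a log2 relative half-life of -0.68 ± 0.08 (edgeR adjusted p = 1.4e-08). With a minimum of 1 count in place of the TPM thresholds the calls of MRPS11 and MRPL57 were lost, at -0.05 and -0.38 (adjusted p of 0.62 and 0.057 in edgeR). MRPS2 (chr9:135499984-135504673, plus strand) had 45.7, 49.3, 46.9 and 41.5 TPM and 89.1 and 92.5 TPM. At -0.35 ± 0.13 (edgeR adjusted p = 0.012) MRPS2 was the weakest of the 5 calls. It was lost without either PRO-seq replicate (adjusted p of 0.056 and 0.077) and with replicates as a block (adjusted p = 0.053), and with a minimum of 1 count its log2 value turned to 0.28. With 500 bp taken off the PRO-seq length, counts unchanged, and with centering on all TUs it was also lost. The values were then -0.21 and -0.10 (edgeR adjusted p of 0.11 and 0.43). Nor did MRPS2 pass for a difference beyond 2-fold. MRPS25 and MRPS14 completed the 7 genes below the median mRNA, at -0.19 ± 0.06 and -0.18 ± 0.08. The 5 genes on neither side were MRPS34, MRPL24, MRPL2, MRPL10 and MRPL42, with log2 relative half-lives from -0.04 to 0.34; these, MRPS25 and MRPS14 were named after their values were seen, except MRPS34 and MRPL10.

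**Figure D2:**
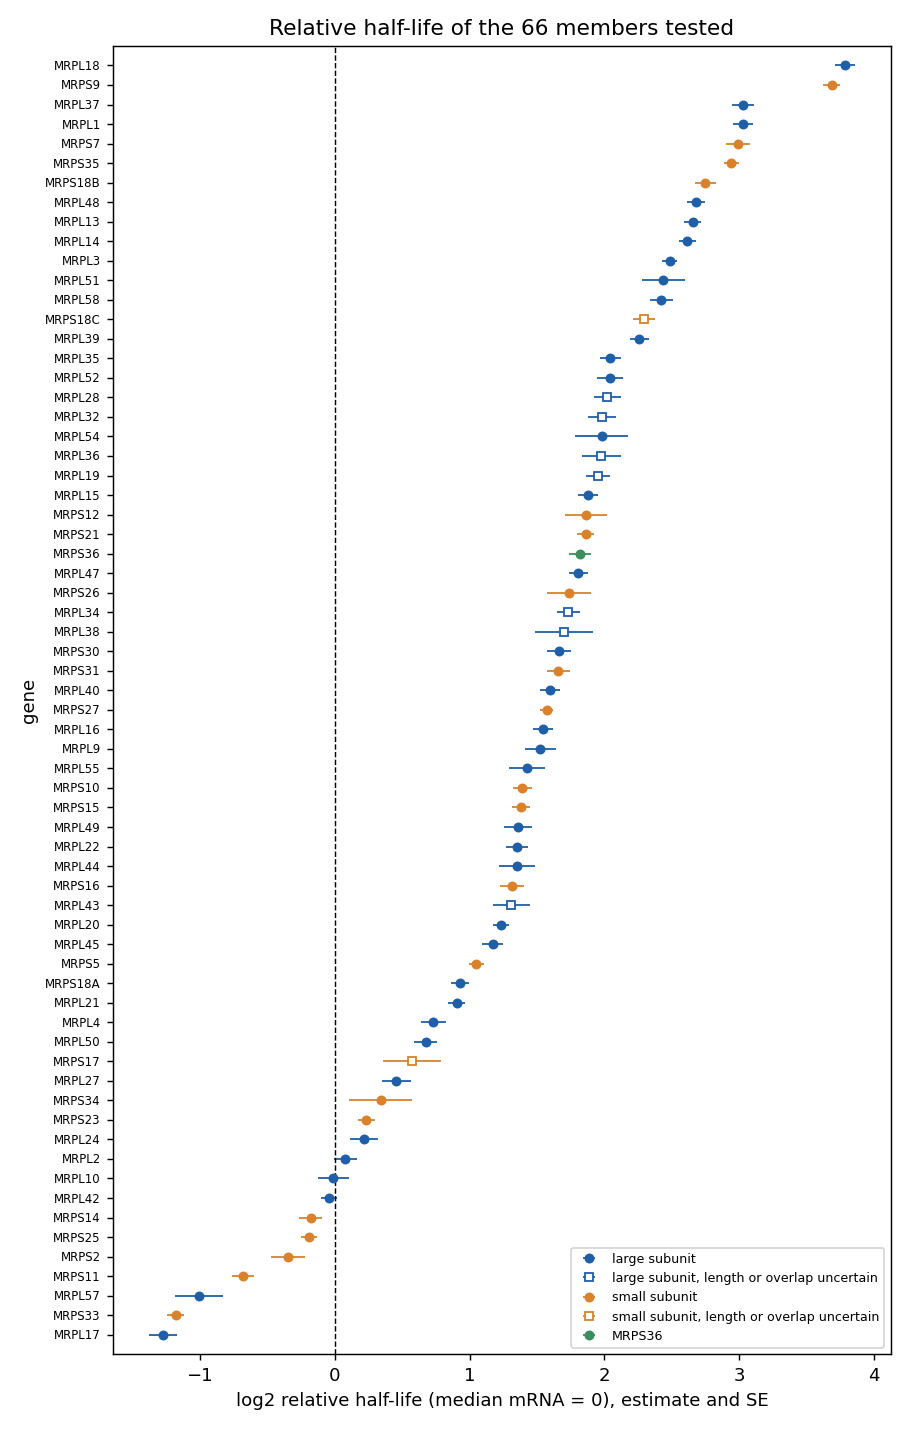
Log2 relative half-life (x axis, median mRNA at 0) with SE for each of the 66 mitochondrial ribosomal protein genes tested (y axis), colored by subunit; open squares mark genes whose counted length or overlap makes the value uncertain. The estimates form a continuous series from -1.28 for MRPL17 to 3.78 for MRPL18, and 57 of 66 are above 0.

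MRPL20 was the most abundant of the 76 genes in both assays. This large subunit protein with a bacterial counterpart (chr1:1401909-1407293, minus strand) had 661, 661, 657 and 644 TPM in RNA-seq and 392 and 474 TPM in PRO-seq, with a log2 relative half-life of 1.23 ± 0.06 (edgeR adjusted p = 4.5e-18). Another TU covers 19.7% of its exons on the other strand. Whether RNA-seq counting used strand is not stated. MRPL40, a large subunit protein found only in mitochondria (chr22:19432545-19436075, plus strand), ranked 3 in RNA-seq at 514, 518, 503 and 526 TPM, with 280 and 250 TPM in PRO-seq and a log2 relative half-life of 1.60 ± 0.07. MRPS34, a small subunit protein found only in mitochondria (chr16:1771895-1773134, minus strand), was second in PRO-seq with 274 and 395 TPM, at 288, 284, 271 and 245 TPM in RNA-seq. Its 2 PRO-seq values lie farther apart than its RNA-seq values, and they rest on 42 counts, since 1240 bases of span leave 240 for PRO-seq. MRPS34 was not called (log2 0.34 ± 0.23, edgeR adjusted p = 0.17). With 500 instead of 1000 bp taken off its PRO-seq length, and counts unchanged, it lay at 1.92 (edgeR adjusted p = 2.6e-10). That shift comes from the divisor alone, so it shows dependence on length and is no estimate of half-life.

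The promoters of the 3 genes with the highest PRO-seq level and of the 3 MRPS18 paralogues are shown because each holds at least 1 of 3 motifs searched for. They run from 250 bases before to 50 bases after the RefSeq start site (GRCh38.p14), 5′ to 3′ on the gene's strand, with motif matches in capitals. The windows are chr1:1407244-1407543 (minus strand), chr16:1773085-1773384 (minus), chr11:6683291-6683590 (minus), chr6:43687742-43688041 (minus), chr6:30617590-30617889 (plus) and chr4:83455808-83456107 (plus), in the order printed.
MRPL20: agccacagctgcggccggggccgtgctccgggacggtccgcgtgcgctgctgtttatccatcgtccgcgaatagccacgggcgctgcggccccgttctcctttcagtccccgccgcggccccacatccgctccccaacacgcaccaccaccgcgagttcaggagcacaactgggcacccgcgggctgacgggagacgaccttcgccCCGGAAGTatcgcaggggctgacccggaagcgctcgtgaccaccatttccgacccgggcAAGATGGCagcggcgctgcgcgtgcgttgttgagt
MRPS34: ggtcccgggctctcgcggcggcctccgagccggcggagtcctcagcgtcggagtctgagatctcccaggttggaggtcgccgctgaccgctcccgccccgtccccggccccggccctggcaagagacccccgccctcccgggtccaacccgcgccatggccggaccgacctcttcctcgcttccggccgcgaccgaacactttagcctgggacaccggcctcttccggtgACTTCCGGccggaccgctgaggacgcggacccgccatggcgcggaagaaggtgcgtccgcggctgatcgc
MRPL17: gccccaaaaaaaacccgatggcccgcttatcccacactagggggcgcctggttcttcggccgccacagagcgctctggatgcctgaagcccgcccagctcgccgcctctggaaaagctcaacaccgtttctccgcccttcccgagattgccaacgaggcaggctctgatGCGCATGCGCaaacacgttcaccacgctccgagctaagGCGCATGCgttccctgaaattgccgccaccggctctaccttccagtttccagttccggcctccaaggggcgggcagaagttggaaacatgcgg
MRPS18A: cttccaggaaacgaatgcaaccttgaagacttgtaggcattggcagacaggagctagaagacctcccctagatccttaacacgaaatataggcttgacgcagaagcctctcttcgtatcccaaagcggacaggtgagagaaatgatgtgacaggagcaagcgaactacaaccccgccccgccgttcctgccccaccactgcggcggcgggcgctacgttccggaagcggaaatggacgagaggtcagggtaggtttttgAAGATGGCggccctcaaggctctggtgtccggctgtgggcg
MRPS18B: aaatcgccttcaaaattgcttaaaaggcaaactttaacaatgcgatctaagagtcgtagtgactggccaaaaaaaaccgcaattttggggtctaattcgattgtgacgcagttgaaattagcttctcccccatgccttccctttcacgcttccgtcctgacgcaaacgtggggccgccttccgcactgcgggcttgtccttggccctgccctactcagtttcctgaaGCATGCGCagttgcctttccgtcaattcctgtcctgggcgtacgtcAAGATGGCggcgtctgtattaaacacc
MRPS18C: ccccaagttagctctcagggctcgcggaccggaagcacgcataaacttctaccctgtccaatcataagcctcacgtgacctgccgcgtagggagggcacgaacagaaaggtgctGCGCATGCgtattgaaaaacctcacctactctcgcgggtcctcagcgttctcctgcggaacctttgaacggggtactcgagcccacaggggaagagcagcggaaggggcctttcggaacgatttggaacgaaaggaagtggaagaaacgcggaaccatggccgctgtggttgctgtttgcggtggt

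The motifs, searched on both strands, were GCATGCGC (the core bound by NRF1, a regulator of nuclear genes for mitochondrial proteins), ACTTCCGG (bound by ETS factors) and AAGATGGC (bound by YY1). MRPL17 holds 3 matches of the NRF1 core, whose first bases lie at -81, -79 and -43 from its start, and the first and second of these overlap. MRPL20 and MRPS18A hold the YY1 motif 16 and 10 bases into the transcript, and MRPS18B holds both an NRF1 core and a YY1 motif. Of 76 genes 67 matched a RefSeq promoter by symbol, with 83 promoters in all. The YY1 motif was in 23 of these 83 promoters (27.7%), against 5.80% of 10305 promoters of mRNAs tested and 2.89% of all 35116 promoters. In 16 of the 23 it began after the start site. The share was 7.69% for cytosolic ribosomal protein genes and 17.9% for genes of complex I subunits. The ETS motif was in 15.7% of the 83 promoters, against 8.88% and 4.14%, and the NRF1 core in 7.23%, against 5.25% and 3.05%. In no promoter of the 83 did matches of different motifs share bases. A match is a description of the letters, not evidence of binding.

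The MRPS18 family has 3 members in the mitochondrial ribosome. MRPS18B and MRPS18C sit in the small subunit and MRPS18A in the large one. MRPS18B (chr6:30617840-30626392, plus strand) had 301, 296, 309 and 286 TPM in RNA-seq and 64.0 and 73.8 TPM in PRO-seq. MRPS18C (chr4:83456083-83467504, plus strand) had 181, 194, 182 and 190 TPM and 63.4 and 54.9 TPM. MRPS18A (chr6:43671202-43687791, minus strand) had 160, 163, 182 and 158 TPM and 137 and 132 TPM. The large subunit paralogue thus had the highest PRO-seq level in both libraries, without overlap, and the lowest mean RNA-seq level, where its range overlapped that of MRPS18C. The log2 relative half-lives were 2.75 ± 0.08 for MRPS18B, 2.29 ± 0.08 for MRPS18C and 0.93 ± 0.07 for MRPS18A (edgeR adjusted p of 5.1e-24, 2.9e-21 and 4.3e-14). MRPS18C was counted over 11422 bases, whereas its canonical transcript spans 6241. Another TU covers 60.6% of the exons of MRPS18A on the other strand, and its part in the RNA-seq level was not tested.

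The stalk of the large subunit, which recruits translation factors, could be followed poorly. MRPL10, its base, had 51.7, 47.6, 55.8 and 41.4 TPM in RNA-seq and 70.2 and 82.9 TPM in PRO-seq. Its log2 relative half-life was -0.01 ± 0.12 (edgeR adjusted p = 0.93), with 4 of 8 library pairs on each side of the median mRNA. With a minimum of 1 count in place of the TPM thresholds it lay at 0.62 and was called above. MRPL12, which sits on MRPL10 in several copies, had 43.8, 40.0, 44.0 and 43.9 TPM in RNA-seq and no PRO-seq count in either library, where 3 counts in all would have been 1.82 TPM. MRPL11, the neighbor of the stalk, had 130, 113, 125 and 119 TPM in RNA-seq, but 7.31 and 8.91 TPM in PRO-seq over a counted span of 31659 bases, against 3774 bases of its canonical transcript.

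Most genes of both subunits lay above the median mRNA. Of 43 large subunit genes tested (49 counted) 37 were above the median mRNA and 2 below. Of 22 small subunit genes tested (26 counted) 16 were above and 5 below. These counts, and those by origin given further on, are to be read against 45.3% above and 45.0% below among all mRNAs tested. The median log2 relative half-life was 1.66 for the large subunit (1.52 to 1.75 over the library pairs) and 1.39 for the small one (1.27 to 1.56). The large subunit had the higher median in all 8 pairs, by little where PRO-seq replicate 1 was used (1.58 against 1.56 with RNA-seq replicate 1), and the difference was not tested. Median RNA-seq levels were 121 and 165 TPM and median PRO-seq levels 72.4 and 86.2 TPM. Genes with a bacterial counterpart had a median of 1.53 (38 tested, 31 above, 4 below) and mitochondria-specific genes 1.60 (27 tested, 22 above, 3 below). Their ranges over the library pairs, 1.48 to 1.63 and 1.48 to 1.65, nearly coincide. MRPS36, which is now assigned to the 2-oxoglutarate dehydrogenase complex rather than to the ribosome, was kept apart and lay at 1.82 ± 0.08.

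The counts rest on 1 transcript per gene, and this transcript was not always the main one. Of the 76 genes 48 were counted on the Ensembl canonical transcript and 28 on another, 10 of which carry no defined coding sequence or are marked for nonsense-mediated decay. In 10 genes the counted span exceeded the canonical one more than 1.5-fold, and in 11 genes another counted TU covered over 10% of the exons or of the PRO-seq window on the same strand. PRO-seq counts were scarce under such overlap. Of 728 mRNAs whose PRO-seq window was covered whole on the same strand, 94.4% had no PRO-seq count, against 21.8% of 821 covered on the other strand alone and 9.24% of 11671 free of overlap. MRPL40 and MRPS16, with 100% of the window covered on the other strand, had 350 and 275 PRO-seq counts. The median mRNA covered on the other strand alone had 8 PRO-seq counts, against 127 without overlap.

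The 10 genes that were not tested fall into these classes. MRPL12, MRPL30, MRPS24, MRPS28, MRPS6 and MRPL46 had between 99.5% and 100% of the PRO-seq window covered on the same strand, and between 0 and 3 PRO-seq counts each. In RNA-seq MRPL30 still had 58.4, 57.6, 59.6 and 61.9 TPM, MRPS6 had 74.6, 72.0, 64.0 and 66.4 TPM and MRPS28 had 33.1, 43.6, 37.0 and 44.9 TPM. MRPS24 had no count in any library, where 3 counts in all would have been 0.302 TPM in RNA-seq and 2.75 TPM in PRO-seq, and MRPL46 had 68 RNA-seq counts. MRPS22, MRPL33, MRPL23 and MRPL11 were counted over spans of 351241, 216349, 37191 and 31659 bases, against canonical spans of 13110, 8015, 9269 and 3774. MRPS22 had 327, 347, 345 and 346 TPM in RNA-seq, the ninth highest of the 76, but 3.67 and 3.31 TPM in PRO-seq. MRPL33 had 47.8, 35.1, 49.4 and 31.0 TPM and 3.64 and 3.63 TPM, and MRPL23 had from 2.51 to 5.98 TPM and 0.534 and 1.47 TPM. The genes next to the PRO-seq threshold were MRPL38 at 12.4 TPM, MRPL1 at 19.8 TPM and MRPS9 at 22.9 TPM inside it and MRPL11 at 8.12 TPM, MRPL33 at 3.64 TPM and MRPS22 at 3.49 TPM outside it.

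Of the genes tested, 9 are uncertain for the same reasons. They are MRPL28, MRPL32, MRPL36, MRPL19, MRPL34, MRPL38, MRPL43, MRPS17 and MRPS18C, all of them called above the median mRNA with log2 relative half-lives from 0.58 to 2.29. MRPL38 (25.0, 26.7, 24.2 and 27.7 TPM in RNA-seq, 14.0 and 10.9 TPM in PRO-seq) and MRPS17 (21.9, 25.9, 26.1 and 23.9 TPM, 30.9 and 19.9 TPM) were covered by a same-strand TU over 94.1% and 65.2% of their windows. With lengths restricted to uncovered bases their log2 values turned from 1.70 and 0.58 to -0.54 and -0.46, and neither was called. MRPS17 was also not called without PRO-seq replicate 2. With lengths restricted to the bases inside the canonical transcript, and counts unchanged, MRPL34 and MRPL43 turned from 1.73 and 1.31 to -3.23 and -2.66. Their counted spans were 14047 and 17739 bases, against canonical spans of 972 and 1229. Counts outside the canonical transcript stayed in, so these values show dependence on length and are no estimate of half-life. The 57 genes within the limits on span and same-strand overlap all passed the thresholds, with 45 above and 7 below the median mRNA. Among mRNAs within these limits 45.3% were above and 44.7% below. The median log2 relative half-life of the 57 genes was 1.52. Cover on the other strand and the lack of a coding sequence did not enter these limits.

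Among the genes tested, those with longer mature transcripts had lower relative half-lives. Spearman's rho between exon length and log2 relative half-life was -0.49 over the 66 genes and -0.33 over all mRNAs tested. It was -0.50 over the 57 genes within the limits on span and same-strand overlap. Exon length is the divisor of the RNA-seq level and so part of the measure, and its part in the result was not tested. The 9 genes under 0 had a median exon length of 2305 bases and the other 57 a median of 1224 bases. In PRO-seq the level fell with the span of the gene, with a rho of -0.52 over the 66 genes and -0.29 over all mRNAs. Span less 1000 bp is the divisor of the PRO-seq level, so this relation is in part built into the unit. The median gene tested had 5 exons, 1378 bases of exons and a span of 10727 bases, against 9 exons, 3056 bases and 29505 bases for all mRNAs tested. In 4 bins by quartiles of the genes' span, the median log2 relative half-life was between 1.37 and 1.96. Other mRNAs placed in these bins had medians between -0.18 and 0.03. The bin of longest span held 17 of the genes and 5875 other mRNAs, so spans in it were not matched. From shortest to longest, the median PRO-seq levels were 109, 80.7, 83.9 and 44.3 TPM. Those of the other mRNAs were 74.1, 59.5, 58.2 and 42.4 TPM. Exon length was not binned, and the part of span in these results was not tested.

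Other gene groups with housekeeping roles were set beside them, to be read against 45.3% above and 45.0% below among all mRNAs tested. Proteins of the cytosolic ribosome had 63 of 76 genes tested above and 9 below the median mRNA, and subunits of complex I, the first enzyme of the respiratory chain, had 31 of 31 above. Their median log2 relative half-lives, 2.39 (2.36 to 2.46 over the library pairs) and 2.27 (2.10 to 2.45), were higher than that of the mitochondrial ribosomal protein genes in every library pair. Cytosolic ribosomal protein genes had far higher levels, with medians of 1880 TPM in RNA-seq and 551 TPM in PRO-seq, and a wider spread of log2 relative half-life (SD 1.94 against 1.12). Complex I genes had 210 TPM and 60.9 TPM, a lower median PRO-seq level than the mitochondrial ribosomal protein genes. These differences were not tested.

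**Figure D3:**
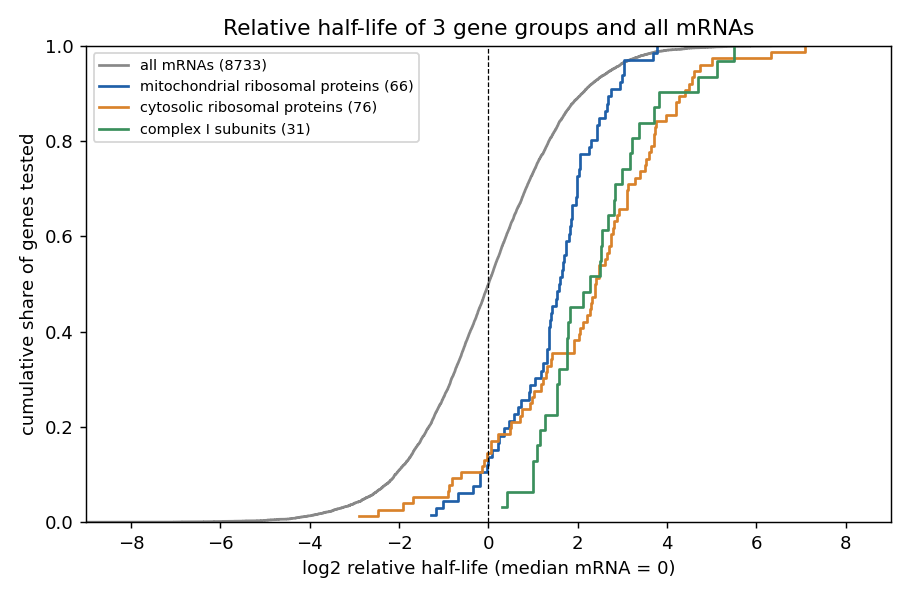
Cumulative share of genes tested (y axis) by log2 relative half-life (x axis, median mRNA at 0) for mitochondrial ribosomal protein genes, cytosolic ribosomal protein genes, complex I subunits and all mRNAs. The mitochondrial ribosomal protein genes reach their median at 1.58, to the right of all mRNAs at 0 and to the left of complex I subunits at 2.27 and cytosolic ribosomal proteins at 2.39.

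The 5 proteins of the mitochondrial ribosome that carry other symbols gave a similar picture, with 4 above the median mRNA and 1 not called. Among all mRNAs tested 45.3% were above and 45.0% below. AURKAIP1 had 1030, 983, 970 and 981 TPM in RNA-seq and 238 and 249 TPM in PRO-seq, with a log2 relative half-life of 2.66 ± 0.13, so its RNA-seq level exceeded that of every MRPL and MRPS gene. DAP3, the GTP-binding protein of the small subunit, was at 2.45 ± 0.05 and CHCHD1 at 1.60 ± 0.19. PTCD3, a pentatricopeptide repeat protein of the small subunit, was at 0.25 ± 0.05. GADD45GIP1, a large subunit protein with 71.9, 72.5, 72.9 and 69.9 TPM in RNA-seq and 113 and 131 TPM in PRO-seq, was at -0.13 ± 0.11 and was not called (edgeR adjusted p = 0.26).

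Factors that work with this ribosome were counted in the same way, and are to be read against the 45.3% above and 45.0% below among all mRNAs tested. Of 16 translation factors 10 were above the median mRNA (62.5%) and 6 below (37.5%), and their median log2 relative half-life was 0.60. TUFM, the elongation factor that delivers tRNA, had 633, 617, 629 and 631 TPM in RNA-seq and 143 and 160 TPM in PRO-seq, at 2.68 ± 0.07, and the initiation factor MTIF2 was at 2.20 ± 0.05. SLIRP, a partner of LRPPRC in mitochondrial mRNA maintenance, was highest at 4.33 ± 0.06, but was counted over 53002 bases against 9496 of its canonical transcript. MTRF1L, a release factor, had 25.4, 23.7, 24.7 and 25.5 TPM in RNA-seq and 272 and 294 TPM in PRO-seq, and lay at -2.88 ± 0.06, below every mitochondrial ribosomal protein gene tested. TSFM, which recycles TUFM, was at -4.75 ± 0.25, with 12 RNA-seq counts in all and 64.7% of its exons covered by another TU on the same strand. Of 26 genes of ribosome assembly and rRNA modification 22 were tested, 11 above and 8 below (36.4%), shares near those of all mRNAs, with a median of 0.15. MTERF4 was lowest at -4.40 ± 0.11, counted over 30164 bases against 6717.

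Many mitochondrial ribosomal protein genes start back to back with another gene. In 26 of 76 genes (34.2%), tested or not, the start of a protein-coding gene on the opposite strand lay within 1000 bp upstream. The share was 9.59% of 18966 mRNAs with positions, and 15.5% of the mRNAs tested. The pairs include 2 members of the ribosome itself, MRPS11 and MRPL46, whose starts are 320 bases apart. In 19 pairs both genes were tested, and in 16 of these the mitochondrial ribosomal protein gene had the longer relative half-life. For comparison, 57 of all 66 genes tested had a log2 value over that of the median mRNA. Whether the pairing matters was not tested. The median was 1.60 for these genes and -0.41 for their neighbors. MRPL47 and NDUFB5, a complex I subunit 156 bases away, lay close together at 1.81 ± 0.07 and 1.58 ± 0.06, as did MRPL18 and the chaperonin subunit TCP1 at 3.78 ± 0.08 and 3.51 ± 0.04. MRPL43 and TWNK, the mitochondrial DNA helicase, lay apart at 1.31 ± 0.14 and -0.36 ± 0.11, although MRPL43 is among the uncertain genes. FAU, a cytosolic ribosomal protein gene 187 bases from MRPL49, lay above it, at 2.77 ± 0.08 against 1.36 ± 0.10. Across the 19 pairs Spearman's rho was 0.19 for log2 relative half-life and -0.16 for PRO-seq level. The pairs named were chosen after their values were seen.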

How the data were processed

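Human K562 cells were measured with 4 total RNA-seq and 2 PRO-seq libraries. The authors deposited raw HTSeq counts per transcript for each library, made from reads trimmed by cutadapt and placed on GRCh38 by HISAT2. Versions of these tools, and whether counting used strand, are not stated. Summary rows that name no TU were left out. They made up 66.5% to 68.6% of RNA-seq records per library, and 86.5% and 88.6% in PRO-seq. Of 42371 transcripts 88.1% were joined by identifier to GENCODE, whose GRCh38 positions gave lengths. In all 75 genes found in RefSeq the positions overlapped the RefSeq gene.

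TPM used exon length for RNA-seq and span minus 1000 bp for PRO-seq, where the authors left out 500 bp at each end. RNA-seq was compared with PRO-seq in edgeR (version 4.0.16, R version 4.3.3) with TMM normalization, length offsets, centering on the median mRNA and Benjamini-Hochberg adjustment over 10052 TUs. DESeq2 (version 1.42.0) was an alternative, and others changed scaling, thresholds, lengths, libraries and blocking. Python 3.11.15 was used otherwise. The fit was run on simulated counts of 10008 TUs, 198 of them changed by 1 on the log2 scale. It recovered 181 of these (91.4%) and called 13 unchanged TUs. Most TUs were unchanged there, whereas most were called in these data, so the simulation cannot speak to the shares called here. PRO-seq reads polymerase occupancy, so elongation speed enters the ratio. PCR copies could not be told from separate molecules, so SEs cover counting error and the spread between these libraries.

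The genes, lists and comparisons were chosen with earlier results of these data known. Named genes are the 5 highest and 5 lowest called genes on the same side in replicates 1 and replicates 2, the 3 highest and 3 lowest by level in each assay, the MRPS18 and stalk genes, all uncertain genes, the 5 proteins with other symbols, and the 3 highest and 3 lowest translation or assembly genes. Alternatives on overlap and on lengths inside the canonical transcript were chosen after seeing the data. Those on lengths changed the lengths alone, and the counts stayed those of the whole counted transcript.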

Additional observations from a re-analysis of the deposited data

Results flagged for a closer look

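In 3 of 37 measures checked over the 4 RNA-seq libraries, 1 library stood apart from the other 3, and chance alone gives about 1 in 20. MRPL12 ranged from 40.0 to 44.0 TPM with replicate 2 lowest, and the gap was 0.954 of the range. MRPL57 ranged from 34.3 to 36.3 TPM with replicate 3 highest, and the gap was 0.851 of the range. MRPS22 ranged from 327 to 347 TPM with replicate 1 lowest, and the gap was 0.900 of the range.

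The counts also cover pseudogenes with MRPL or MRPS symbols, which no comparison used. The 7 annotated as pseudogenes held 204 RNA-seq and 143 PRO-seq counts in all, 0.0879% of the genes' RNA-seq counts, and 192 of the RNA-seq counts were on MRPL3P1. MRPL45P2 and MRPS31P5, which have pseudogene symbols but are annotated as lncRNA, are not among them. MRPL45P2 had 122 RNA-seq and 1772 PRO-seq counts, and MRPS31P5 had 48 RNA-seq counts.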

How the results depend on the processing

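The count of genes above the median mRNA stayed within 1.5 times of 54 in every alternative, except where genes counted on the canonical transcript alone were taken. Of these 44 genes, a smaller set, 34 were above (77.3%) and 6 below (13.6%). Of all 66 genes 81.8% were above and 10.6% below, against 45.3% and 45.0% of mRNAs tested. Among the 66 genes the count below was 7, against 45.0% of mRNAs tested. With a minimum of 1 count in place of the TPM thresholds 2 of 73 genes were below and 69 above. Of mRNAs, 33.4% were then below and 42.0% above. Centering on the median of all TUs gave 4 below and 58 above, against 39.1% and 51.5% of mRNAs. For a difference beyond 2-fold there were 2 below and 46 above, against 23.2% and 24.2% of mRNAs. Leaving out 1 library at a time gave 53 to 55 above and 4 to 7 below. Of mRNAs, 43.9% to 45.2% were then above and 43.4% to 44.9% below. The medians were 1.54 to 1.62 for log2 relative half-life, 0.68 to 0.75 for PRO-seq and 2.22 to 2.24 for RNA-seq. RNA-seq and PRO-seq share replicate numbers, but same-numbered libraries did not deviate together (r = -0.01 over 9996 TUs, 2 pairs), and the replicate block gave 54 above and 5 below. The medians for log2 relative half-life, PRO-seq and RNA-seq moved to 2.33, 1.87 and 3.76 with a minimum of 1 count, and to 1.52, 0.48 and 1.97 with thresholds of 20 and 2 TPM. With 500 instead of 1000 bp taken off the PRO-seq length, and counts unchanged, those for half-life and PRO-seq were 1.74 and 0.62. With centering on all TUs those for half-life and RNA-seq were 1.83 and 2.56. Among alternatives chosen after seeing the data, lengths without shared bases gave 1.64, 0.62 and 2.00. Lengths cut to the bases inside the canonical transcript gave 0.57 for PRO-seq. Genes counted on the canonical transcript gave 1.53 and 0.75 for half-life and PRO-seq. The genes within the limits on span and same-strand overlap gave 1.52 and 0.84. The sign turned for MRPL34 (-3.23) and MRPL43 (-2.66) with lengths cut to the bases inside the canonical transcript and counts unchanged. It also turned for MRPL38 (-0.54) and MRPS17 (-0.46) without shared bases, and for MRPS2 (0.28) with a minimum of 1 count. Of 422 values for 25 named genes, 400 kept their direction and side of the threshold. The cause of these shifts was not tested. Depth limits MRPL38, MRPS34, MRPL51 and MRPS17 most, the 4 genes tested with the fewest PRO-seq counts (34, 42, 46 and 48).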
